A study of Mus musculus with 10 samples.

Results

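The genes described are 10 genes of the neuromuscular junction, namely Chrna1, Chrnb1, Chrnd, Chrne, Chrng, Musk, Rapsn, Dok7, Lrp4 and Colq. They were taken by symbol from bulk RNA-Seq counts of 23337 mouse genes, and all 10 were listed. The 10 libraries came from the left ventricle (LV) and the skeletal muscle (SkM) of 5 mice, 2 WT and 3 E0del/+. E0del/+ mice are heterozygous for a deletion of E0, a conserved element in the first intron of Ttn. All 5 mice were hybrids of C57BL/6 and 129SvEv, and their age and the muscle sampled are not given in the sources used here. A library was 1 tissue of 1 mouse, with a total of 11010021 to 17484873 counts. Levels are in CPM, the count of a gene as a share of the library total on a common scale, and levels of different genes are compared only as RPKM, which also divides by the summed exon length.

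At the neuromuscular junction, acetylcholine released by a motor axon opens nicotinic receptors that are packed in the fibre membrane under the nerve ending. The receptor is a ring of alpha, beta, delta and either epsilon or gamma subunits, and epsilon replaces gamma as muscle matures. Agrin from the nerve binds Lrp4, which activates the kinase Musk with the help of Dok7, and Rapsn then anchors the receptors, while Colq tethers acetylcholinesterase in the cleft.

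In mm10 coordinates, Chrna1 lay on chr2:73563281-73580306 (minus strand, 9 exons), Rapsn on chr2:91035627-91045729 (plus strand, 8 exons) and Lrp4 on chr2:91457531-91513901 (plus strand, 37 exons). Chrnb1 lay on chr11:69784036-69795937 (minus strand, 11 exons) and Chrne on chr11:70614883-70619194 (minus strand, 12 exons). Chrnd, on chr1:87190652-87200070 (plus strand, 12 exons), was followed after 5740 bp by Chrng, on chr1:87205811-87211835 (plus strand, 12 exons). Musk lay on chr4:58285962-58374303 (plus strand, 16 exons), Dok7 on chr5:35057084-35087831 (plus strand, 9 exons) and Colq on chr14:31523084-31577383 (minus strand, 17 exons). In GENCODE M21, Gm49387 on the same strand overlaps 199 bp (7.02%) of the exons of Colq, and antisense Gm13778 overlaps 4 bp of those of Rapsn. Strand was not kept in the library preparation, and reads in those stretches may belong to either gene.

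Promoter sequences are shown for the adult and the fetal subunit, which are compared within SkM, and for Chrna1 and Musk. These last were far higher in SkM than in LV, as the adult subunit was. The sequences are the 300 bases around the RefSeq gene start in GRCm38.p6, and 6 of the 10 genes had an entry. The motifs searched on both strands were CCGGAA (the N-box core), CAGCTG and CANNTG (the E-box, which includes CAGCTG), held by 14.9%, 16.3% and 72.3% of all 32851 promoters. Capitals mark CCGGAA and CAGCTG, and a match is a description of letters. The regions are chr11:70619145-70619444 (minus strand) for Chrne, chr1:87205561-87205860 (plus strand) for Chrng, chr2:73580289-73580588 (minus strand) for Chrna1 and chr4:58285712-58286011 (plus strand) for Musk.
Chrne: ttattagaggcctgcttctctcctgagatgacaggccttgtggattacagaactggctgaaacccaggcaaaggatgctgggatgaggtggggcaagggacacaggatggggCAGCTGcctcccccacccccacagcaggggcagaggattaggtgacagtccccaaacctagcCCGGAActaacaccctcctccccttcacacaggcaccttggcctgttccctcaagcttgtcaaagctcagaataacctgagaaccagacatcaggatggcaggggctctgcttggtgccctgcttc
Chrng: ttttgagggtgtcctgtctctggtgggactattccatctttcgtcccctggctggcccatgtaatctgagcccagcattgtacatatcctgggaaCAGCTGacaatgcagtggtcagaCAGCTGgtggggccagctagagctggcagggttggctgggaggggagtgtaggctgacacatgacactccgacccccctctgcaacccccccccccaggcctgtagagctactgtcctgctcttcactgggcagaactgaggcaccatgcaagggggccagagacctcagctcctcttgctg
Chrna1: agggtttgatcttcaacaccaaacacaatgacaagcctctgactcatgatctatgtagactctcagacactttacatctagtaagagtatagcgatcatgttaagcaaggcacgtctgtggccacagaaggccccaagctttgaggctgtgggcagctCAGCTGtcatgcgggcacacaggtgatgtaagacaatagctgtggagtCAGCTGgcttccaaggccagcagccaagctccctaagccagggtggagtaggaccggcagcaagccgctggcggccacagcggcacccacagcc
Musk: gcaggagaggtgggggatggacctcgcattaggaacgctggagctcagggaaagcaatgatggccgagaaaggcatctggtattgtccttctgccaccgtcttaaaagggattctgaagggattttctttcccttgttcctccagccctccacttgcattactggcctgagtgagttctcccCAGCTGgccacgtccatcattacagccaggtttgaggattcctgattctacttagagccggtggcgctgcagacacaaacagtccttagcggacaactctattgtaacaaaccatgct
The Chrne window held 1 CCGGAA and 1 CAGCTG, the Chrng and Chrna1 windows held 2 CAGCTG each, and the Musk window held 1 CAGCTG. In the entries of Chrnb1 and Dok7, neither of these 6-base motifs was found.

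Tissue markers were checked first. The summed level of 9 ventricle genes, led by Myh6 in LV, was 63451 to 92308 CPM in LV and 157 to 2154 CPM in SkM. The summed level of 9 fast fibre genes, led by Myh4, was 114303 to 125079 CPM in SkM. In LV it was 154 to 183 CPM in 4 libraries and 28438 CPM in the WT LV replicate 2 library. In that library, the level of each fast fibre gene above the mean of the other LVs came to 20.7% to 24.5% of the same quantity in SkM of E0del/+ replicate 3 (median 21.9%), a reference chosen after the data were seen. With the mean of all 5 SkM libraries as the reference it came to 16.3% to 24.6% (median 22.4%). The WT SkM replicate 1 library, with Xist at 397 CPM, also held Y-linked Ddx3y at 12.5 CPM, against 94.1 and 108 CPM in the SkM of WT replicate 2 and E0del/+ replicate 3. The 5 adipocyte genes, led by Fabp4, summed to 226 CPM in the WT LV replicate 2 library and 119 to 249 CPM in the other LVs, but 4 of the 5 were higher there than in any other LV. Plin1 was at 45.9 CPM against 0.436 to 3.19 CPM, Cidec at 38.2 against 0.436 to 3.19 CPM, Adipoq at 23.8 against 0 to 1.89 CPM and Lep at 12.3 against 0 to 0.154 CPM. Fabp4 went the other way and was lowest there, at 105 CPM against 117 to 243 CPM. In SkM that sum was 444 and 23.5 CPM in WT replicates 1 and 2 and 130, 73.0 and 687 CPM in E0del/+ replicates 1 to 3. These libraries stand apart, and the tissue differences of named genes that leaving out the WT LV replicate 2 library moved by over 1.5 times are given with and without it.

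Chrna1 encodes the alpha subunit, which carries most of the acetylcholine binding site. Its level was 0.154 and 2.07 CPM in the LV of WT replicates 1 and 2, and 0.130, 0.0908 and 0.523 CPM in the LV of E0del/+ replicates 1 to 3. In SkM it was 8.71 and 6.98 CPM in WT, and 11.8, 7.73 and 12.4 CPM in E0del/+. The tissues did not overlap, and the WT LV replicate 2 library was highest among the LVs with 23 counts, against 1 to 6 in the others. Paired by mouse, SkM exceeded LV by a log2 fold change of 5.07 (SE 0.67, adjusted p = 0.000383, edgeR), and by 6.11 without the WT LV replicate 2 library. In bulk tissue, fewer cells of a type and less RNA per cell cannot be told apart. Over the other 4 mice, 605 SkM counts stood against 11 LV counts, a 47.1-fold difference (exact 95% interval 26.1 to 94.9, for counting error only).

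Chrnd encodes the delta subunit. In LV it had 0 counts in 4 libraries and 12 counts (1.08 CPM) in WT replicate 2. Its SkM level was 3.53 and 1.32 CPM in WT and 4.12, 2.33 and 3.52 CPM in E0del/+. In the mouse WT 2, the 2 tissues were therefore close, at 1.22 times the LV level in SkM. Against a floor of 3 counts over the LVs of the other 4 mice, SkM was 57.4-fold higher, which leaves out counting error in SkM. Over all 5 mice the fit gave a log2 fold change of 5.11 (SE 1.16, adjusted p = 0.00592), and 8.84 without the WT LV replicate 2 library. Both depend on the count added to libraries at 0 and are no bounds.

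Chrne encodes the epsilon subunit of the adult receptor. Its LV level was 0 and 3.78 CPM in WT and 0, 0.0908 and 0.0872 CPM in E0del/+, which are 0, 42, 0, 1 and 1 counts. Its SkM level was 5.90 and 8.29 CPM in WT and 8.25, 5.53 and 14.9 CPM in E0del/+. Every SkM library lay above every LV library, with the WT LV replicate 2 library the nearest. Fitted over all 5 mice, the log2 fold change was 5.41 (SE 1.00, adjusted p = 0.00214), and 7.99 without the WT LV replicate 2 library. Over the 4 mice other than WT 2, SkM was 219-fold higher (exact 95% interval 60.3 to 1812, from 2 LV counts).

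Chrnb1 encodes the beta subunit and was the only subunit with counts well above 0 in every LV. Its LV level was 7.42 to 16.6 CPM with a median of 10.8 CPM, and its SkM level was 27.0 to 37.9 CPM with a median of 36.1 CPM. SkM was 2.17 to 3.64 times LV in CPM, higher in 5 of 5 mice. With TMM scaling, which takes most genes not to differ between libraries, the difference in log2 was 2.15 (SE 0.13, adjusted p = 1.2e-05), and with total counts it was 1.49.

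Chrng, the gamma subunit of the fetal receptor, was near the limit of detection and did not pass the filter on low counts in the comparison of the tissues, of the genotypes in either tissue, or of both together. It had 0, 2, 0, 1 and 0 counts in the LVs, in the order used above, and 3, 29, 0, 1 and 4 counts in SkM. The WT SkM replicate 2 library was highest, at 1.66 CPM, and the next was at 0.282 CPM. A count of 0 allows up to 0.185 CPM in the E0del/+ SkM replicate 1 library. In the mouse WT 2, SkM was at 9.22 times LV, from 29 and 2 counts. Over all 5 mice, 37 SkM counts stood against 3 LV counts, a ratio of 9.95 (exact 95% interval 3.15 to 50.4), most of it from that mouse. Over the 4 mice other than WT 2, the ratio was 6.85 (exact 95% interval 0.919 to 304), which includes 1.

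**Figure D1:**
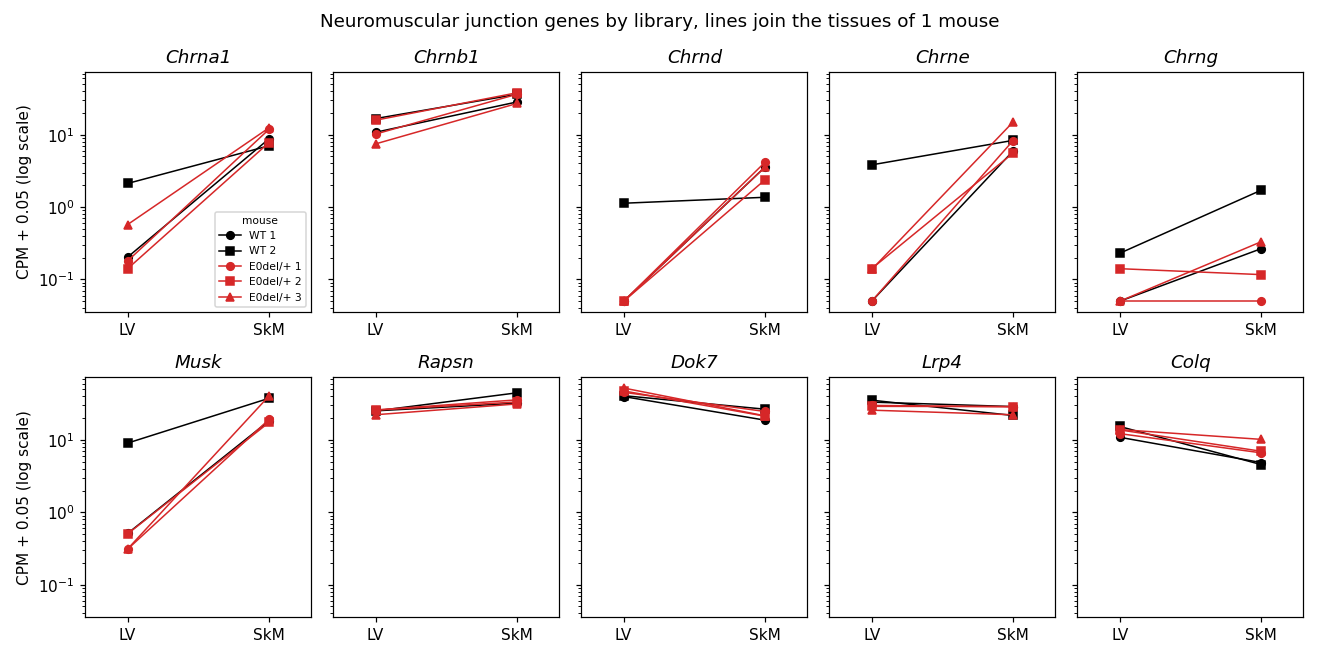
Level of each gene in CPM with 0.05 added (log scale) in LV and SkM, with lines joining the tissues of 1 mouse and colours for genotype. Chrna1, Chrnd, Chrne and Musk are near 0 in 4 LVs and higher in the WT replicate 2 LV, where Musk reaches 9.0 CPM.

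The adult and fetal subunits were compared per kb within SkM. Chrne stood at 3.71 and 5.21 RPKM in WT and 5.18, 3.48 and 9.38 RPKM in E0del/+. Chrng stood at 0.112 and 0.863 RPKM in WT and 0, 0.0347 and 0.147 RPKM in E0del/+. Chrne was above Chrng in 5 of 5 mice. The ratio was 33.0 (exact 95% interval 10.9 to 163) and 6.04 (4.03 to 9.33) in WT replicates 1 and 2. In E0del/+ replicate 1, with 0 Chrng counts, it was 53.9 against a floor of 3 counts, which leaves out counting error in Chrne. The exact 95% interval there allows Chrng up to 2.26% of the sum of both per kb. The ratio was 100 (17.5 to 4005) in E0del/+ replicate 2 and 64.0 (24.6 to 237) in replicate 3. The mean log2 ratio with 0.5 count added was 5.53 (SD 2.09, n = 5), and flipping the signs in every way gave an exact two-sided p = 0.0625, below which 5 mice cannot go. Its mean was 3.70 in WT and 6.75 in E0del/+, a difference of 3.05 with an exact permutation p = 0.1, below which 2 mice against 3 cannot go. That difference was 1.92 without WT replicate 2 and 4.17 without WT replicate 1. It was 2.25, 3.39 and 3.50 without E0del/+ replicates 1, 2 and 3. With 0 Chrng counts in E0del/+ replicate 1, its log2 ratio of 8.34 depends on the 0.5 count added. The 2 WT mice differed from each other, and the low ratio in WT replicate 2 rested on its 29 Chrng counts.

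**Figure D2:**
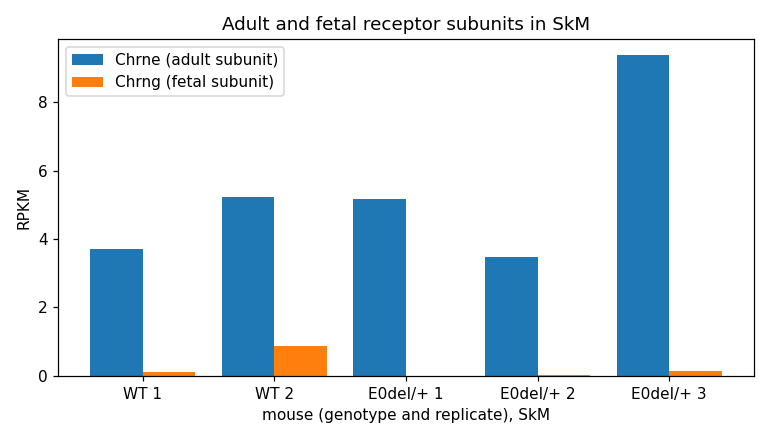
RPKM of Chrne and Chrng in the SkM library of each mouse, as bars of single libraries. Chrne is the taller bar in all 5 mice, and Chrng is visible mainly in WT replicate 2, at 0.863 RPKM.

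Musk is the receptor tyrosine kinase that agrin and Lrp4 activate. Its LV level was 0.461 and 9.0 CPM in WT and 0.260, 0.454 and 0.262 CPM in E0del/+. Its SkM level was 18.3 and 37.6 CPM in WT and 19.1, 17.4 and 40.4 CPM in E0del/+. The tissues did not overlap, and the WT LV replicate 2 library, with 100 counts, was far above the 3 to 6 counts of the others. SkM was higher by a log2 fold change of 5.31 (SE 0.67, adjusted p = 0.000291), and by 6.55 without that library. Over the 4 mice other than WT 2, SkM was 66.6-fold higher (exact 95% interval 42.0 to 113).

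In the WT LV replicate 2 library, the excess of Musk, Chrne, Chrna1 and Chrnd over the other LVs came to 21.6%, 25.1%, 15.2% and 30.7% of the excess in SkM of E0del/+ replicate 3. That mouse had the highest SkM level of Musk, Chrne and Chrna1, and the shares change with the reference. Against the mean of the 5 SkM libraries they were 33.0% for Musk, 43.8% for Chrne, 19.8% for Chrna1 and 36.4% for Chrnd, where the fast fibre genes were at 16.3% to 24.6%. The shares of Chrna1 and Chrnd rest on 23 and 12 counts. These 4 genes were near 0 in the other LVs. Chrnb1 and Rapsn, which were not, came to 35.3% and 4.86% (25.5% and 3.00% against the mean), with Rapsn inside the range of the other LVs, and Chrng to 60.8% (37.3%) from 2 counts. Lrp4 and Colq went the other way, since both were highest among the LVs in that library though lower in SkM in CPM (-80.8% and -105%, and -171% and -43.8% against the mean). Dok7, also lower in SkM, came to 21.6% (22.6%) and was inside the range of the other LVs. The part of skeletal muscle and fat RNA in these levels was not tested.

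**Figure D3:**
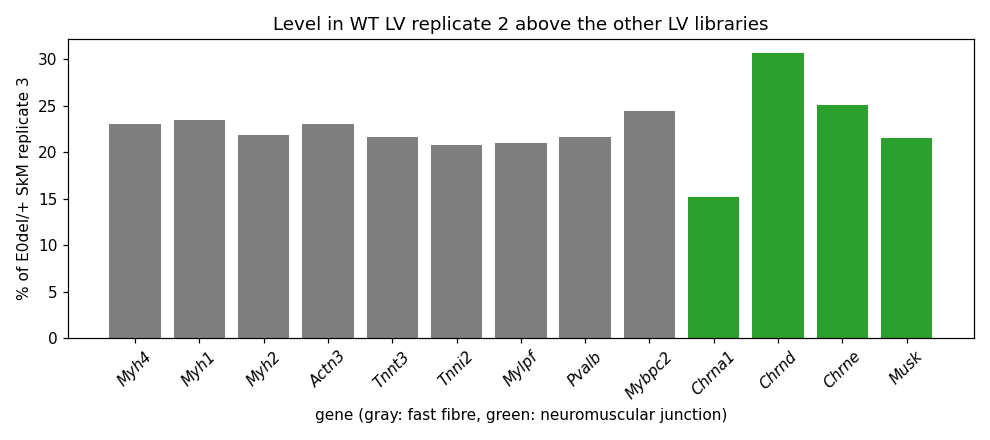
Level in the WT LV replicate 2 library above the mean of the other 4 LVs, as a percent of that excess in SkM of E0del/+ replicate 3, as bars for 9 fast fibre genes and the 4 junction genes that stood apart in that library. The fast fibre genes lie between 20.7% and 24.5%, and these junction genes between 15.2% and 30.7%, with higher shares for all 4 when the mean of the SkM libraries is the reference.

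The scale of the tissue comparison matters for the remaining genes. The share of a library taken by its 20 most abundant genes was 16.9% to 18.9% for LV and 33.6% to 36.7% for SkM, while TMM factors were 1.17 to 1.41 in LV and 0.708 to 0.900 in SkM. Scaling to total counts moved the median log2 fold change of all genes by -0.66, from -0.02 to -0.68. Of the genes called, 48.3% were higher in SkM with TMM and 16.8% with total counts. TMM and total counts differ only by a factor per library. For genes with ample counts, a value relative to the median gene is therefore nearly the same on both, which is no separate support.

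Rapsn, the anchoring protein, was at 22.2 to 25.9 CPM in LV (median 25.2) and 31.4 to 44.7 CPM in SkM (median 33.4). The groups did not overlap and SkM was 1.27 to 1.78 times LV in CPM, higher in 5 of 5 mice. The log2 fold change was 1.17 with TMM (SE 0.12, adjusted p = 0.000128) and 0.50 (adjusted p = 0.00406) with total counts.

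Lrp4, the agrin receptor, was at 33.3 and 35.4 CPM in the LV of WT and 29.9, 29.1 and 25.7 CPM in E0del/+, and at 28.9, 21.7, 28.7, 28.8 and 22.2 CPM in SkM in the same order of mice. In CPM the tissues overlapped and SkM was lower in 5 of 5 mice, at 0.615 to 0.993 times LV. With TMM it was higher in SkM, by 0.43 in log2 (SE 0.14, adjusted p = 0.0265), and with total counts, which shift all genes, it was -0.24 (adjusted p = 0.125). Relative to the median of all genes it was 0.44 higher in SkM on both scales, an agreement that follows from how the scales differ. Leaving out WT replicate 1 or any 1 of the 3 E0del/+ mice gave 0.28 to 0.46 with TMM and lost the call (adjusted p = 0.0536 to 0.0764), and leaving out WT replicate 2 gave 0.53 (adjusted p = 0.00947).

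Dok7, the cytoplasmic activator of Musk, was at 39.7 to 52.1 CPM in LV (median 45.5) and 18.7 to 26.5 CPM in SkM (median 21.5). The groups did not overlap, and LV was 1.54 to 2.43 times SkM in CPM. With TMM the log2 difference was -0.34 (SE 0.13) and missed the threshold of 0.05 (adjusted p = 0.0524). Relative to the median of all genes it was -0.32 on both scales, and the pass with total counts (-1.01, adjusted p = 0.000286) came with the shift of all genes. It also passed without the low-count filter (adjusted p = 0.0396), with at least 10 counts in every library (0.0151), without the mouse WT 2 (0.0121) and without its LV library alone (-0.49, adjusted p = 0.00731). It did not pass with RLE factors (0.0580), with DESeq2 (0.0811), with no mouse block (0.0727), or without any 1 of the other 4 mice (0.0634 to 0.188).

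Colq, the collagen tail of acetylcholinesterase, was at 10.8 to 15.3 CPM in LV (median 13.7) and 4.52 to 10.1 CPM in SkM (median 6.58). LV was higher in 5 of 5 mice in CPM. In log2, SkM minus LV was -0.38 with TMM (SE 0.20, adjusted p = 0.126) and -1.04 (adjusted p = 0.0029) with total counts. Relative to the median of all genes it was -0.36 on both scales.

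**Figure D4:**
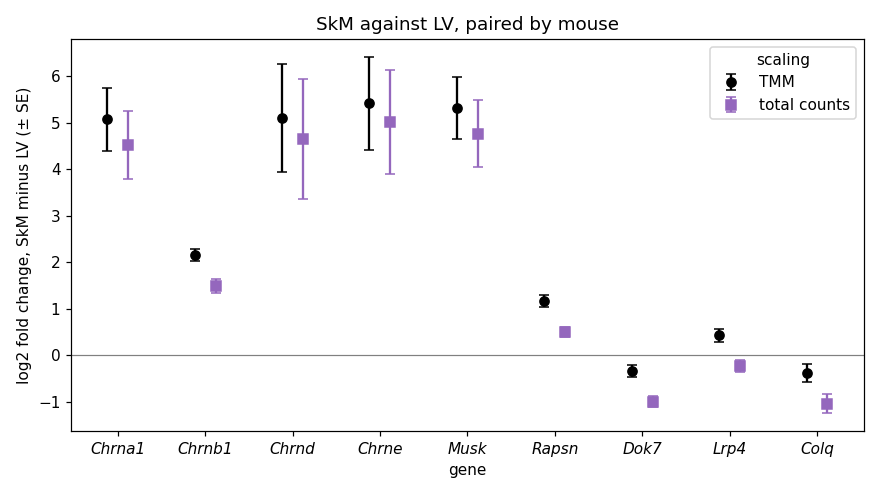
Log2 fold change of SkM over LV from the paired fit (points, with standard errors as bars) for the 9 genes tested, with TMM scaling and with total counts. Lrp4 lies at 0.43 with TMM and at -0.24 with total counts. Relative to the median gene it is at 0.44 on both, an agreement that follows from how the scales differ. Chrna1, Chrnb1, Chrnd, Chrne, Musk and Rapsn lie above 0 on both scales.

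Of the 9 genes tested, 7 were called higher in SkM and 0 higher in LV (Lrp4 among the 7), where 30.0% of all 13283 genes were called higher in SkM, 32.1% higher in LV and 62.1% in either direction. With total counts, 6 were higher in SkM and 2, Dok7 and Colq, higher in LV, where 11.98% and 59.3% of all genes were. The members were selected with earlier results known, and Chrna1, Chrnd, Chrne and Musk passed the filter through SkM, so the count is a description.

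By mean RPKM in SkM, the order was Rapsn (21.9 ± 3.35, SD, n = 5), Chrnb1 (15.4 ± 2.36), Dok7 (9.07 ± 1.24), Musk (7.24 ± 3.11), Chrne (5.39 ± 2.37), Lrp4 (2.77 ± 0.397), Colq (2.33 ± 0.791), Chrna1 (2.22 ± 0.569), Chrnd (1.02 ± 0.387) and Chrng (0.231 ± 0.358). Rapsn was above Chrnb1, and Chrnb1 above Dok7, without overlap. Dok7 and Musk overlapped, as did Musk and Chrne, Lrp4 and Colq, Colq and Chrna1, and Chrnd and Chrng. The mean of Chrng and its overlap with Chrnd rest on WT replicate 2, where Chrng was at 0.863 RPKM. In the other SkM libraries Chrng was at 0 to 0.147 RPKM and Chrnd at 0.801 RPKM or more. In LV the order was Dok7 (18.2 ± 2.03), Rapsn (15.3 ± 0.925), Chrnb1 (5.66 ± 1.83), Colq (4.65 ± 0.605), Lrp4 (3.26 ± 0.398), Musk (0.569 ± 1.05), Chrne (0.497 ± 1.05), Chrna1 (0.138 ± 0.197), Chrnd (0.0742 ± 0.166) and Chrng (0.0282 ± 0.0419). There Dok7 was above Rapsn in 5 of 5 libraries though their ranges overlapped, Colq overlapped with Chrnb1, and the last 5 overlapped in turn. Without the WT LV replicate 2 library (n = 4), the order of those 5 changed to Musk (0.0980 ± 0.0309), Chrna1 (0.0524 ± 0.0469), Chrne (0.0280 ± 0.0323), Chrng (0.0118 ± 0.0236) and Chrnd, with 0 counts. The last exon held 70.6% of the length of Chrna1, so its RPKM depends on reads in that exon.

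The spread between SkM libraries differed between genes. The SD of log2 CPM was 0.60 for Musk, 0.57 for Chrne, 0.66 for Chrnd, 0.46 for Colq and 0.37 for Chrna1, and 0.20 to 0.23 for Chrnb1, Rapsn, Dok7 and Lrp4. For Chrne and Chrnd, much of it came from a single library. Chrne in E0del/+ replicate 3 lay 0.89 above the SkM mean in log2, with the others at -0.53 to 0.05. Chrnd in WT replicate 2 lay at -1.05, with the others at -0.24 to 0.58. Counting error alone gives 0.08 for Musk, 0.13 for Chrne and 0.23 for Chrnd. The median was 0.37 over the 9 junction genes tested in SkM and 0.27 over all genes tested there (quartiles 0.16 and 0.55), and with Chrng, not tested, it was 0.42. The highest over the lowest library was 2.32 for Musk, 2.70 for Chrne and 3.13 for Chrnd, against a median of 1.58 over all genes tested. Apart from E0del/+ replicate 3, Chrne was at 5.53 to 8.29 CPM, and apart from WT replicate 2, Chrnd was at 2.33 to 4.12 CPM.

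Musk was high in the SkM of WT replicate 2 and E0del/+ replicate 3 and lower in the other 3 libraries. The 7 slow fibre genes, of which Myh7 was most abundant in SkM, summed to 211 and 416 CPM in those 2 libraries and to 1619, 2326 and 2898 CPM in WT replicate 1 and E0del/+ replicates 1 and 2. The sum of the 9 ventricle genes split the libraries in the same way. It was 210 and 157 CPM in the first 2 and 2154, 1312 and 1394 CPM in the others. Most of it in the others was Actc1, at 2060, 1012 and 1233 CPM, against at most 148 CPM in the first 2. Of the other ventricle genes, Myh6 and Mybpc3 split in this way. Tnnt2, Tnni3, Ryr2, Nppa, Nppb and Myl7 did not. Tnnt2 was at 7.99 CPM in WT replicate 1, against 9.95 and 9.64 CPM in the first 2. The mice WT replicate 2 and E0del/+ replicate 3 were also those with Y-linked counts and little Xist. The 8 Schwann cell genes, led by Pmp22, summed to 167, 97.3, 31.7, 36.8 and 108 CPM in SkM, in the order WT 1 and 2 and E0del/+ 1 to 3. The 5 motor neuron genes summed to at most 0.352 CPM there, with 3 to 5 of them at 0. The part of fibre type, ventricle transcripts, sex and nerve tissue in the spread of Musk was not tested.

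**Figure D5:**
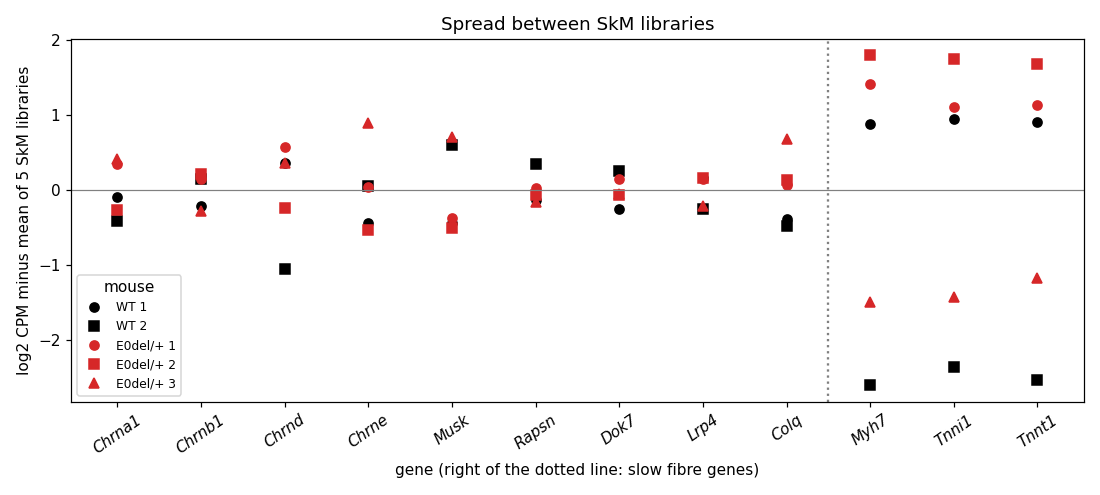
Log2 CPM of each SkM library minus the mean of the 5 SkM libraries, for 9 junction genes and, right of the dotted line, 3 slow fibre genes, with 1 point per library. Musk is high in WT replicate 2 and E0del/+ replicate 3, the libraries in which Myh7, Tnni1 and Tnnt1 are low.

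E0del/+ was compared with WT within each tissue. In SkM, 0 of 13154 genes were called by edgeR (0%), with 114 at an unadjusted p under 0.05, and 0 by DESeq2. Of the 9 junction genes tested, 0 were called. In LV, 0 of 13420 genes were called (0%), with 564 at an unadjusted p under 0.05, and 0 by DESeq2, and 0 of the 5 junction genes tested were called. Chrna1, Chrnd, Chrne, Chrng and Musk did not pass the low-count filter in LV. With batch as a block, which pairs WT with E0del/+ in batches 1 and 2, edgeR called 1 gene in SkM (596 at an unadjusted p under 0.05) and 5 genes in LV (585), with 0 junction genes among them. They were Y-linked Eif2s3y in SkM, and in LV Y-linked Kdm5d, Uty, Ddx3y and Eif2s3y together with Mstn, the myostatin gene, all lower in E0del/+. In the LVs of batch 2, Ddx3y was at 114 CPM in WT and 1.27 CPM in E0del/+. The WT LV of that batch is the library with fast fibre transcripts, and it held Mstn at 43.3 CPM, against 0.325 to 0.908 CPM in the other LVs and 148 to 213 CPM in SkM.

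In SkM, the genotype groups of Colq did not overlap in CPM, 1 of the 9 junction genes tested, where 11.4% of all genes tested did not overlap. Colq was at 4.82 and 4.52 CPM in WT and 6.58, 6.93 and 10.1 CPM in E0del/+. The difference in log2 was 0.76 (SE 0.30, adjusted p = 1.00), and 0.53 with batch as a block. Within batches 1 and 2, E0del/+ was 1.37 and 1.53 times WT in CPM, and batch 3 held no WT mouse. With TMM scaling, a choice made after the data were seen, Chrna1 did not overlap either, which made 2 of 9 against 11.9% of all genes tested. In LV, Colq overlapped between genotypes.

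In LV the genotype groups of Dok7 and Lrp4, 2 of the 5 junction genes tested, did not overlap in CPM, where 15.4% of all genes tested did not. With TMM scaling, chosen after the data were seen, that held for Lrp4 alone of the 5, and for 16.5% of all genes tested. Dok7 was at 39.7 and 40.9 CPM in WT and 45.5, 47.5 and 52.1 CPM in E0del/+, a log2 difference of 0.20 (SE 0.17, adjusted p = 0.997), and 0.09 with batch as a block (adjusted p = 0.998). Within batches 1 and 2, Dok7 in E0del/+ was 1.15 and 1.16 times WT in CPM and 1.17 and 0.965 times WT with TMM. Lrp4, with the LV levels given above, differed by -0.35 in log2 (SE 0.16, adjusted p = 0.997), and -0.33 with batch as a block. Without the WT LV replicate 2 library, the highest LV for Lrp4, the difference was -0.23. Within batches 1 and 2, Lrp4 in E0del/+ was 0.900 and 0.822 times WT in CPM. Musk in LV, with the levels given above, did not overlap either and differed mainly through the WT replicate 2 library. Neither Dok7 nor Lrp4 passed the threshold, and Musk was not tested in LV.

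The interaction of genotype and tissue was called for 0 of 14327 genes (0%), with 238 at an unadjusted p under 0.05 and 0 by DESeq2, and for 0 of the 9 junction genes tested. Without WT replicate 1, the only WT mouse left is the one whose LV library held fast fibre transcripts. Then 578 of 14050 genes were called in LV (4.11%) and 155 of 14872 for the interaction (1.04%), and Chrne and Musk were called in both, 2 of 8 and 2 of 10 junction genes tested. The 1 WT mouse was taken to vary like the E0del/+ mice, which alone give the spread. Without WT replicate 2, edgeR called 0 in LV and 0 for the interaction, with 104 and 161 at an unadjusted p under 0.05.

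Other genes of the junction were taken from lists, where 30.0% of all genes tested were called higher in SkM and 32.1% higher in LV with TMM, a split that moved with the scale to 11.98% and 59.3% with total counts. Of 17 receptor clustering and signalling genes, 5 were higher in SkM and 6 higher in LV, with a median log2 fold change of 0.09, against -0.02 over all genes, and with total counts they were 3 and 12. Those with the largest rises were Pak1 (log2 fold change 4.74), Ache, the acetylcholinesterase gene (3.23), and Dvl1 (1.76), and those with the largest falls were Fyn (-2.56), Agrn, the agrin gene (-2.37), and Macf1 (-1.57). Pak1 was at 35.5 CPM in the WT LV replicate 2 library and 1.13 to 2.15 CPM in the other LVs, and its log2 fold change was 5.59 without that library. Of 16 scaffold and matrix genes tested, 3 were higher in SkM, among them Sntb1 and Dtna, and 11 higher in LV, with Epha4 (-4.67), Lama4 (-2.54) and Lama2 (-2.20) lowest in SkM (median -1.53). Of 8 neuregulin and ETS genes tested, 0 were higher in SkM and 5 higher in LV, with Erbb4 (-3.82), Erbb2 (-1.97) and Erbb3 (-1.46) lowest. Etv4, named after its values were seen, was at 10.3 CPM in the WT LV replicate 2 library and 0.260 to 0.908 CPM in the other LVs, the former above the 0.686 to 2.38 CPM of SkM. Its log2 fold change was 1.32 (adjusted p = 0.262) with that library and 2.29 (adjusted p = 0.00446) without it.

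Of 11 other nicotinic subunits, 3 passed the filter. Chrna10 was higher in SkM (14.9 ± 1.32 against 10.03 ± 2.50 CPM, SD, n = 5) and Chrna2 higher in LV (2.66 ± 0.329 against 0.293 ± 0.189 CPM). Of 5 glycosylation genes, Alg2 (1.69) and Gfpt1 (1.44) were higher in SkM and Gmppb (-0.69) higher in LV. Of 14 denervation-responsive genes, 9 were higher in SkM, with Myod1 (6.54), Myog (6.15) and Dach2 (4.06) leading, and 3 higher in LV, among them Ankrd1 (-6.93) and Hdac9 (-1.10). The median of that list was 0.79, and with total counts 5 were higher in SkM and 4 higher in LV. In the WT LV replicate 2 library Myod1 was at 6.57 CPM, Myog at 1.26 CPM and Dach2 at 1.17 CPM, against 0 to 0.0768, 0 and 0 to 0.182 CPM in the other LVs. Without that library the fitted log2 fold changes were 9.81, 10.18 and 5.41, which depend on the count added to libraries at 0 and are no bounds. For genotype, 0 genes of these lists were called in either tissue.

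The genes most like Chrna1 over the 10 libraries, by root mean square difference of centred log2 CPM, were Kcnc1 (0.36), Hoxc4 (0.44), Acta1 (0.44), 9330159F19Rik (0.49) and Atp2b3 (0.53), against a median of 2.96 over 13274 genes. Those most like Chrne were Hoxc9 (0.56), Mchr1 (0.57), Hoxd9 (0.59), Hoxa10 (0.62) and Barx2 (0.64), against a median of 3.70. The 10 libraries include WT LV replicate 2, in which Kcnc1 was at 34.6 CPM against 1.45 to 5.84 CPM in the other LVs, and Hoxc9 at 1.98 CPM against 0. Without that library, a choice made after the data were seen, 5 of the 5 genes for Chrna1 and 4 of the 5 for Chrne were again among the 5 most like them, and the differences of all 5 named were 0.36 to 0.53 and 0.58 to 0.66. Outside WT LV replicate 2, Chrne and the 5 genes named for it were at 0 to 0.363 CPM in LV. Their likeness depends on the 0.5 count added and on the step between the tissues, which remains without that library.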

How the data were processed

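RNA was measured in 10 libraries, from 2 tissues each of 2 WT and 3 E0del/+ mice. The authors deposited a raw count and an RPKM value per gene and library. The submitters' processing notes name STAR, DESeq2 and mm10, without versions, and the counting tool is not given in the sources used here. The deposited RPKM equals count over summed exon length and total count in every library. Of 20953 symbols shared with GENCODE M21, 99.4% overlap its span.

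CPM is the count over the library total. Tests used edgeR 4.0.16 in R 4.3.3 (filterByExpr, TMM, quasi-likelihood test, Benjamini-Hochberg threshold 0.05), with the mouse as a block for SkM against LV and for the interaction, and no block for genotype. DESeq2 1.42.0 was an alternative. The others were RLE factors, total counts, no filter, at least 10 counts in every library, each mouse left out, and other blocks. The fits were tested on simulated data first. Log2 ratios had 0.5 count added, intervals are exact (95%) and cover counting error only, since reads are not independent molecules, and the floor is 3 counts. The members and lists were chosen with earlier results of these data known.

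LV and SkM of a replicate come from the same animal, which gives the pairing. The correlation of deviations from group means across genes was -0.0852 to 0.114 between the tissues of a mouse. The 2 WT mice share a single value, 0.114, since deviations from a mean of 2 are equal and opposite. The pairing does not rest on these values. The batch tag equals the replicate number and pairs WT and E0del/+ in batches 1 and 2, with correlations of 0.0408 and -0.114 in LV and 0.421 and 0.261 in SkM. As a check for a library given more than once, the counts of each pair of libraries of a group were compared (chi-square per degree of freedom at least 12.8), and each was kept as a sample. Named genes are all members, genes from the 3 largest rises and falls of each list past the threshold, any called for genotype, and the 5 genes most like Chrna1 and Chrne. Other genes were named after their values were seen.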

Additional observations from a re-analysis of the deposited data

Results flagged for a closer look

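Each gene was examined for a library far from the other libraries of its tissue, in 5 LV and 5 SkM libraries. Of the 20 groups tested, 6 held a flagged library, and the number that chance alone gives was not measured. In LV, the WT replicate 2 library stood apart for Chrna1 (2.07 CPM, next 0.523), Chrnd (1.08 CPM, the others at 0), Chrne (3.78 CPM, next 0.0908) and Musk (9.0 CPM, next 0.461). That library also held fast fibre transcripts and raised levels of the adipocyte genes other than Fabp4, and their part in these values was not tested. Rapsn in the E0del/+ LV replicate 3 library was low, at 22.2 CPM with the next at 25.1 CPM. Chrng in the WT SkM replicate 2 library was high, at 1.66 CPM with the next at 0.282 CPM.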

How the results depend on the processing

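Lrp4 in SkM against LV reversed with total counts, to a log2 fold change of -0.24, because that scale moves all genes. Relative to the median gene it was 0.44 with both, which follows from how the scales differ and is no separate support. The number of members called in SkM against LV was 7 of 9 tested, and 4 of 5 with at least 10 counts in every library (Chrnb1, Rapsn and Lrp4 higher in SkM and Dok7 lower; 64.0% of all genes called), a filter that removes genes near 0 in LV. With total counts it was 8 of 9, with Dok7 and Colq lower in SkM and Lrp4 not called (71.3% of all genes). It was 6 to 8 on leaving out 1 mouse (54.8% to 61.3% of all genes). Chrna1, Chrnb1, Chrnd, Chrne, Musk and Rapsn were called higher in SkM under every alternative in which they were tested. Without the replicate block, 8657 genes were called in SkM against LV, and the same 7 members.

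For genotype, the replicate block (batch) gave 5 genes called in LV and 1 in SkM in place of 0, with 0 members. Leaving out 1 mouse gave 0 to 578 genes in LV and 0 to 155 for the interaction, the upper ends without WT replicate 1. The other alternatives gave 0. The cause was not tested. With TMM scaling, chosen after the data were seen, genotype groups did not overlap for 1 tested member in LV in place of 2 (16.5% of all genes tested), and for 2 in SkM in place of 1 (11.9%). The log2 ratio of Chrne to Chrng kept its direction under every alternative. At this depth Chrna1, Chrnd, Chrne, Chrng and Musk did not pass the low-count filter for genotype in LV.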
